A study of Mus musculus with 6 samples.

Results

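Collagens are the main structural proteins of the extracellular matrix. Their chains, each made by its own gene, wind into triple helices inside the cell, and the helices are trimmed, assembled and cross-linked outside it. Fibrillar collagens form the ropes of the interstitial matrix, type IV collagen forms the sheet of basement membranes under epithelium and around vessels and muscle, and type VI collagen forms beaded filaments between them. In the gut wall most of these chains are made by fibroblasts, smooth muscle and endothelium of the lamina propria and deeper layers, and epithelial cells make part of the basement membrane. The genes described here are the collagen chain genes on a mouse expression array of the ileal mucosa. They were chosen by symbol alone: every probe set (the group of probes that reports 1 transcript) whose only annotated gene symbol has the form Col, number, a, number. The array held 82 such probe sets for 42 collagen genes, of 18193 genes with a symbol in all. Each gene was read from 1 probe set, the one with the highest mean over the 6 arrays. Genes with several probe sets numbered 27, and 15 genes had 1. RefSeq lists 44 collagen genes, and the remaining pair, Col28a1 and Col6a6, were not analysed here.

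Mucosa of the terminal ileum came from female 129S6 mice aged 3 months. Wild-type (wt) mice were compared with duoxa-/- littermates housed in the same cage. The duoxa-/- mice lack the maturation factors of the dual oxidases, enzymes that make hydrogen peroxide at the epithelial surface. Each of 3 cages held 1 litter, and RNA from 2 to 3 animals was pooled for each genotype in each cage before labelling. The data were therefore 6 pools on 6 arrays, with 3 pools per genotype and 1 pool per genotype in each cage. The spread between animals inside a pool is not seen, and the labels give no detail of the allele beyond the genotype. Values below are listed in the order of cages 1, 2 and 3, on the log2 scale, where a difference of 1 unit is a 2-fold ratio. Signal also depends on the probes, so levels were compared between pools and not between genes.

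The arrays had medians of 6.55 to 6.60, and any pair of arrays correlated at 0.994 to 0.998 over all probe sets. Duoxa2, part of the deleted locus, read 8.81, 8.36 and 7.24 in the wild-type pools and 5.90, 5.55 and 5.92 in the duoxa-/- pools. Every duoxa-/- pool was below every wild-type pool, yet even this difference of −2.34 (SE 0.34) was not called over all genes by limma (adjusted p = 0.760). Over all genes, the wild-type pools of cages 1 and 2 were most often the highest of the 6 (22.5% and 22.7% of genes), and that of cage 1 was most often the lowest (26.8%). All 9 epithelial markers and all 6 measured ileal enterocyte markers were above the median of all probe sets (6.58), as were all 14 smooth muscle markers and 11 of 12 fibroblast markers. Transcripts of muscle and stroma were thus measured beside those of the epithelium. In pooled tissue, fewer cells of a type and less RNA per cell cannot be told apart.

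No collagen gene was called between genotypes at an adjusted p under 0.05 by limma, and neither was any other gene (0.0% of 18193). The smallest adjusted p of a collagen was 0.811. At an unadjusted p under 0.05 limma picked 1 of 42 collagens (2.38%), Col9a1, against 5.53% of all genes; Col9a1 was lower in duoxa-/- pools, as were 3.66% of all genes at that threshold. With the cage as a block the unadjusted count was 4 (9.52%, against 6.41% of all genes), and again 0 were called. The differences were small in most genes: their median was −0.06, against −0.01 over all genes, and 30 of 42 were below 0 (71.4%, against 53.9% of all genes). Of the 42 collagens 24 had a higher group mean above the median of all probe sets (57.1%, against 64.4% of all genes). Among these 14 were below 0 and the median was −0.04. Of all genes above the median of all probe sets, 47.7% were below 0, and their median difference was 0.01. For all 42 genes the 95% confidence interval of the difference lay within 1 log2 unit of 0, from a lowest bound of −0.99 to a highest of 0.79, both in Col1a1. In the probe sets used, a change of 2-fold or more in either direction lay outside every interval. Of the 42 intervals 41 held 0. A further Col1a1 probe set, also above the median, had a difference of −0.48, and its interval is not given. The precision is that of 3 pools per genotype in a fit with no cage term.

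**Figure D1:**
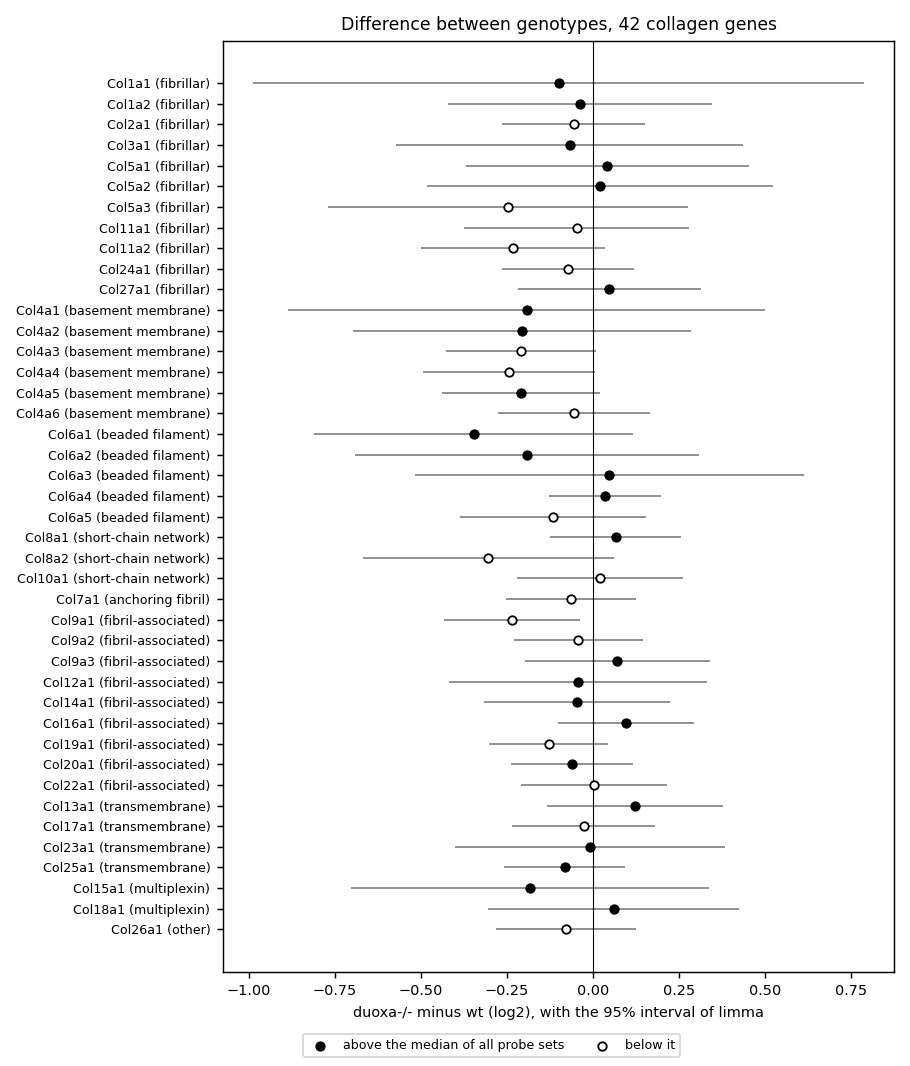
Difference between duoxa-/- and wild-type pools (log2, x axis) for each of 42 collagen genes (y axis), with the 95% interval of limma. Filled points are the 24 genes above the median of all probe sets and open points the 18 below it. All intervals but that of Col9a1 cross 0, and those of Col1a1 and Col4a1 are among the widest.

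The direction of the median difference was not the same in every cage. The median difference of the 42 collagens was −0.17 in cage 1, where 36 of 42 were lower in the duoxa-/- pool. It was 0.04 in cage 2, with 19 lower, and −0.02 in cage 3, with 25 lower. Over all 18193 genes the medians were 0.00, −0.03 and 0.00 in cages 1, 2 and 3, with 8985, 10485 and 9074 genes lower. With 1 pool per genotype and cage, whether the genotype difference varies between cages could not be tested. Without the wild-type pool of cage 1, the median difference was 0.01 in place of −0.06. The 14 smooth muscle markers had median differences of −0.69, 0.20 and −0.05 in the same cages, and all 14 were highest in that pool. The part of muscle RNA in the collagen values of cage 1 was not tested. Collagens lower in the duoxa-/- pool of every cage numbered 10 (23.8%, against 16.6% of all genes), and 0 were higher in every cage (against 13.5%). In 5 collagens all duoxa-/- pools lay below all wild-type pools (11.9%, against 6.46% of all genes), and in 0 all lay above (against 5.08%). These 5, Col4a3, Col4a4, Col8a2, Col9a1 and Col19a1, were all below the median of all probe sets, where signal is dim.

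A large group of collagens read low in cage 3 in both genotypes. Both pools of cage 3 lay below the 4 other pools in 14 of 42 collagens (33.3%, against 9.16% of all genes). The fibrillar genes Col1a1, Col1a2, Col3a1, Col5a1, Col5a2 and Col5a3 were among them, as were Col4a1 and Col4a2 of the basement membrane, Col6a1, Col6a2 and Col6a3 of the beaded filaments, and Col12a1, Col15a1 and Col18a1. The mean of cage 1 was 1.29 to 2.25 times that of cage 3 in these genes, and the mean of cage 2 was 1.13 to 1.67 times it. The same 14 genes, with Col23a1, made up the 15 collagens with an unadjusted p under 0.05 in limma's F-test between cages (35.7%, against 6.21% of all genes). None passed after adjustment over all genes, where 2 of 18193 genes did (0.011%). The smallest adjusted p values of collagens in this F-test were 0.276 for Col5a3, 0.309 for Col4a1 and 0.438 for Col4a2. Cage, litter and any step shared by the pools of a cage cannot be told apart. Without the wild-type pool of cage 1, 12 collagens had an unadjusted cage p under 0.05 and 14 had cage 3 lowest. The latter count could not fall below 14, since cage 3 stays lowest in a gene when another pool is dropped. Without both pools of cage 3, 4 collagens had an unadjusted p under 0.05 between the remaining cages, in a fit with fewer pools. The shares of all genes are not given for either refit, so these counts have no background to compare with.

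**Figure D2:**
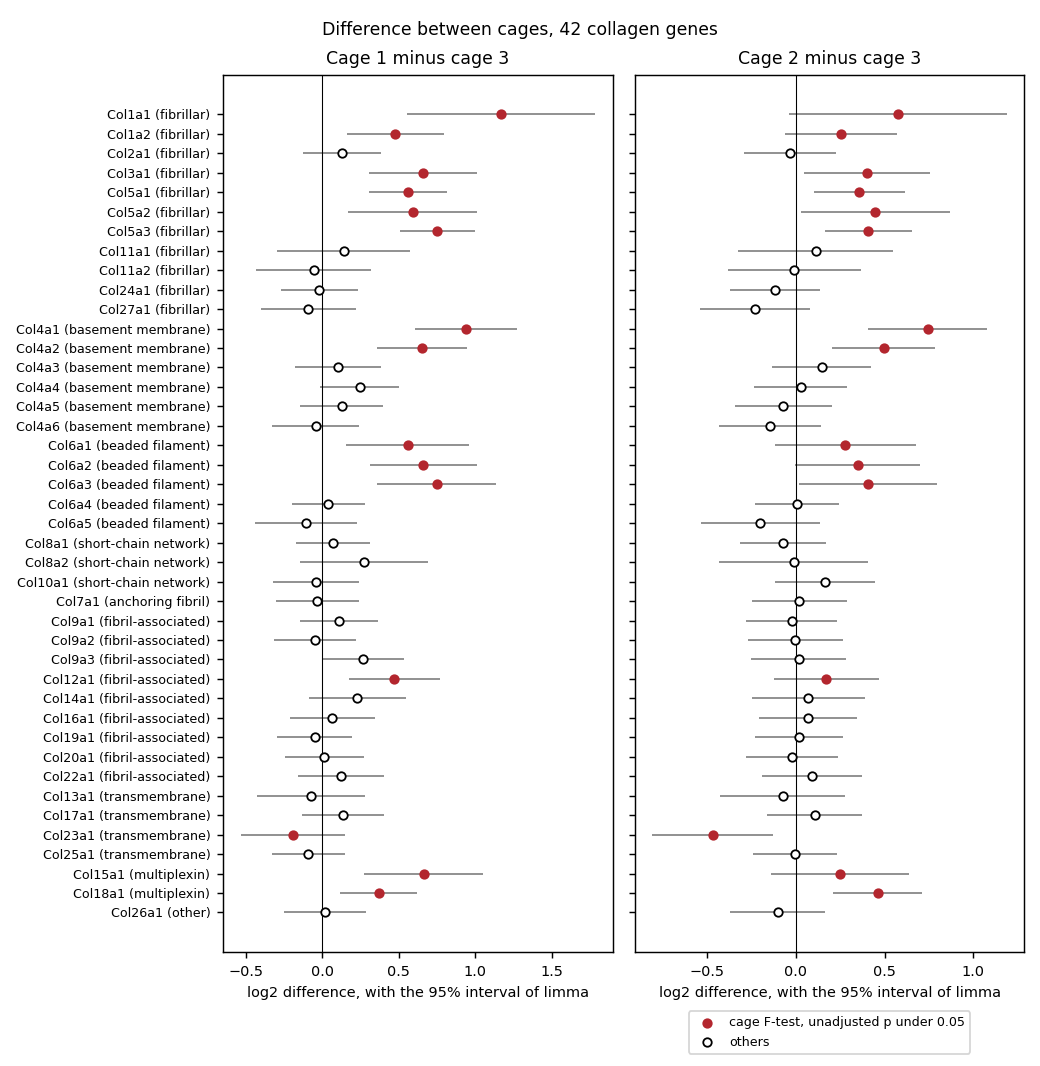
Differences of cage 1 from cage 3 (left) and of cage 2 from cage 3 (right) in log2 units (x axes) for 42 collagen genes (y axis), with 95% intervals of limma. Red points are the 15 genes with an unadjusted cage p under 0.05. Col23a1 is the red point left of 0, and the other 14 lie right of 0 in both panels.

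Cage 1 held many of the highest values. Its wild-type pool was the highest of the 6 for 24 of 42 collagens (57.1%, against 22.5% of all genes). It was the lowest for 0 of 42 (against 26.8% of all genes). Both pools of cage 1 lay above the 4 others in 9 collagens (21.4%, against 4.07% of all genes). These were Col1a2, Col2a1, Col5a1, Col5a3, Col6a2, Col8a1, Col9a3, Col12a1 and Col15a1. The duoxa-/- pool of cage 3 was the lowest of the 6 for 15 of 42 collagens (35.7%, against 14.5% of all genes). Both pools of cage 1 lay below the others in 0 collagens (against 4.98% of all genes). Both pools of cage 2 did so in 2 (4.76%, against 6.44%) and lay above the others in 1 (2.38%, against 7.67%).

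**Figure D3:**
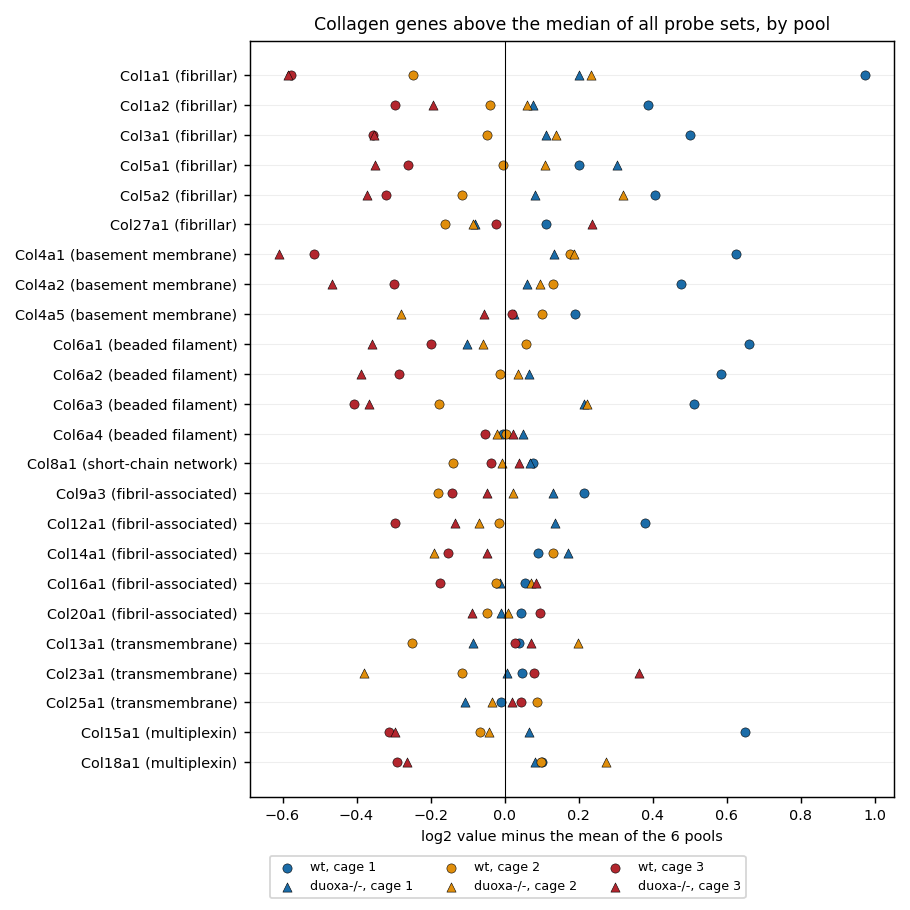
Values of the 24 collagen genes above the median of all probe sets, as log2 value minus the mean of the 6 pools (x axis), 1 line per gene (y axis). Circles are wild-type and triangles duoxa-/- pools, coloured by cage. The red cage 3 points lie left of all others in 13 of the 24 genes, and the blue circle of the wild-type pool of cage 1 is the rightmost point in 14.

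Because the 14 genes read low together, the bases just upstream of their start sites are shown for 5 of them, chosen to include each promoter element that was matched. Promoters came from RefSeq's GRCm38.p6 annotation, as the 250 bases before each start. Of the 42 collagens 33 matched, with 36 windows, and of the 14 genes 11 matched, with 13 windows. The letters searched on both strands were CCAAT, which reads ATTGG on the other strand, the GC box GGGCGG, which reads CCGCCC there, and the TATA box TATAAA, which reads TTTATA there. In the sequences, capitals mark these matches and nothing else.
Col3a1, chr1:45311288-45311537, plus strand, GRCm38.p6: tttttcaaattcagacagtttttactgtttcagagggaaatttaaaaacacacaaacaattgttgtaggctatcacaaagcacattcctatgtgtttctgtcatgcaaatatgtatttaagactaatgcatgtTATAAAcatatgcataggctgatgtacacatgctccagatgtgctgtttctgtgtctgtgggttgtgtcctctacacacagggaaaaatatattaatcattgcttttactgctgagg
Col1a2, chr6:4505368-4505617, plus strand, GRCm38.p6: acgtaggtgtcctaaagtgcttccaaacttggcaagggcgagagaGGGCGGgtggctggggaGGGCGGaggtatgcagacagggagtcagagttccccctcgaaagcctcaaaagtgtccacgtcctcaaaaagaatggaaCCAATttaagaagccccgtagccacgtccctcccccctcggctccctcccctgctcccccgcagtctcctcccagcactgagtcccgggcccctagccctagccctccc
Col5a3, chr9:20815068-20815317, minus strand, GRCm38.p6: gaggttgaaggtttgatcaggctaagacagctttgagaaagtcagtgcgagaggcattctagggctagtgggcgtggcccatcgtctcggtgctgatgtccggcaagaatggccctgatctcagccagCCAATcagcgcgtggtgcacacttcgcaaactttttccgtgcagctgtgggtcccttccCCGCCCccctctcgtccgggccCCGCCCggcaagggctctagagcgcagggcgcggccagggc
Col18a1, chr10:77166531-77166780, minus strand, GRCm38.p6: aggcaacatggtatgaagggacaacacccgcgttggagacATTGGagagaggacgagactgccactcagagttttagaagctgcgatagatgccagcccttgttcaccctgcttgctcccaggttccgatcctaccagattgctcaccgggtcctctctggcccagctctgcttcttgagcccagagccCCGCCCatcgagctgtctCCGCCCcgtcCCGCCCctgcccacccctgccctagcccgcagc
Each of these runs ends at the base before the start site. Of the 4, Col3a1 holds the TATA match and no other, while Col1a2, Col5a3 and Col18a1 each hold CCAAT and GC box matches. CCAAT was found in 5 of the 13 windows of the 14 genes (Col1a2, Col4a1, Col4a2, Col5a3 and Col18a1) and in 13 of 36 collagen windows, against 33.8% of all 32851 promoter windows. The GC box was found in 7 of the 13 and in 21 of 36, against 32.7% of all windows. TATAAA was found in 1 of the 13, that of Col3a1, and in 5 of 36, against 12.4%. A match describes letters and not binding.

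Several collagens are neighbours in the genome. RefSeq places 8 pairs of collagen genes side by side, 7 of them with both genes measured. Col4a1 and Col4a2 start 21 bases apart on chromosome 8, on opposite strands, and their 300-base windows overlap by 78 bases. The stretch just upstream of Col4a2 that holds both a GC box match and a CCAAT match is printed on the Col4a2 strand. The GC box was matched in the window of Col4a2 and not in that of Col4a1.
Col4a2, chr8:11312757-11312786, plus strand, GRCm38.p6: CCGCCCgaggagctccCCAATttgttggcg
Among the 14 genes low in cage 3, Col3a1 and Col5a2 are neighbours on chromosome 1, Col6a1 and Col6a2 on chromosome 10, and Col4a1 and Col4a2 on chromosome 8. In the other measured pairs, neither gene had both cage 3 pools lowest in the probe set used. Examples are Col9a1 with Col19a1 and Col4a3 with Col4a4, on chromosome 1.

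Of the 11 fibrillar collagens, 6 were above the median of all probe sets, and none was called between genotypes. Type I collagen, the chief fibril of scar and connective tissue, is made of the Col1a1 and Col1a2 chains. Col1a1 read 9.63, 8.41 and 8.08 in the wild-type pools and 8.86, 8.89 and 8.07 in the duoxa-/- pools. The wild-type pool of cage 1 was the highest and both cage 3 pools the lowest, and the genotypes overlapped, with a difference of −0.10 (SE 0.39). Its cage 1 mean exceeded that of cage 3 by 1.17, the widest such gap among the collagens. A further Col1a1 probe set had a genotype difference of −0.48, also with overlapping genotypes. Col1a2 read 12.24, 11.81 and 11.55 in the wild-type pools and 11.92, 11.91 and 11.66 in the duoxa-/- pools, a difference of −0.04 (SE 0.17). It had the same order of cages, with a smaller gap of 0.48 between cages 1 and 3.

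Type III collagen, a homotrimer of Col3a1 that is abundant in distensible organs, showed the same arrangement. Col3a1 read 13.52, 12.97 and 12.66 in the wild-type pools and 13.13, 13.15 and 12.66 in the duoxa-/- pools. The groups overlapped and the difference was −0.07 (SE 0.22), while cage 1 exceeded cage 3 by 0.66 and cage 2 exceeded it by 0.40. Type V collagen is buried in type I fibrils and sets their diameter. Col5a1 read 8.77, 8.56 and 8.31 in the wild-type pools and 8.87, 8.68 and 8.22 in the duoxa-/- pools, a difference of 0.04 (SE 0.18). Col5a2 read 10.23, 9.70 and 9.50 in the wild-type pools and 9.90, 10.14 and 9.45 in the duoxa-/- pools, a difference of 0.02 (SE 0.22). In both genes the cage 3 pools were the lowest and the genotypes overlapped. Cage 1 exceeded cage 3 by 0.56 in Col5a1 and by 0.59 in Col5a2. Col5a3, another chain of the type, was dimmer and read 6.64, 6.31 and 5.82 in the wild-type pools and 6.36, 6.002 and 5.67 in the duoxa-/- pools. Each of its duoxa-/- pools was below the wild-type pool of its cage, with a difference of −0.25 (SE 0.23), yet the groups overlapped. Cage 1 exceeded cage 2, and cage 2 exceeded cage 3, in both genotypes.

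Col27a1, a fibrillar chain known from cartilage, did not share this order. It read 8.76, 8.49 and 8.63 in the wild-type pools and 8.57, 8.57 and 8.89 in the duoxa-/- pools, with the duoxa-/- pool of cage 3 the highest, and a difference of 0.05 (SE 0.12). The other fibrillar chains, Col2a1, Col11a1, Col11a2 and Col24a1, belong to cartilage and developing bone and were all below the median of all probe sets. Their differences ran from −0.23 (Col11a2) to −0.05 (Col11a1). The 6 fibrillar genes above the median had median genotype differences of −0.32 in cage 1, 0.15 in cage 2 and −0.00 in cage 3. Without the wild-type pool of cage 1, the differences of Col1a1, Col1a2 and Col3a1 were above 0, at 0.36, 0.15 and 0.17, and those of Col4a1, Col6a2, Col12a1 and Col15a1 were above 0 as well.

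Type IV collagen has 6 chains, and Col4a1 with Col4a2 makes the network found in all basement membranes. Col4a1 read 11.54, 11.09 and 10.40 in the wild-type pools and 11.05, 11.10 and 10.30 in the duoxa-/- pools. Both cage 3 pools were the lowest, with cage 1 above cage 3 by 0.94 and cage 2 above it by 0.74, and the genotypes overlapped with a difference of −0.19 (SE 0.30). Col4a2 read 9.81, 9.46 and 9.03 in the wild-type pools and 9.39, 9.42 and 8.86 in the duoxa-/- pools, again lowest in cage 3, with a difference of −0.21 (SE 0.21). The other 4 chains make networks restricted to certain membranes such as those of kidney and smooth muscle. Col4a5 read 8.06, 7.97 and 7.89 in the wild-type pools and 7.89, 7.59 and 7.81 in the duoxa-/- pools, lower in the duoxa-/- pool of each cage but overlapping across cages, with a difference of −0.21 (SE 0.1) (limma adjusted p = 0.811). Col4a3 and Col4a4 were dim. Col4a3 read 5.04, 5.22 and 4.93 in the wild-type pools and 4.92, 4.82 and 4.82 in the duoxa-/- pools, and Col4a4 read 5.72, 5.42 and 5.35 in the wild-type pools and 5.34, 5.20 and 5.22 in the duoxa-/- pools. In both, every duoxa-/- pool was below every wild-type pool, with differences of −0.21 (SE 0.095) and −0.24 (SE 0.11) (limma adjusted p = 0.811 for each). Col4a6 had a difference of −0.06 (SE 0.096). In the probe sets used, all 6 type IV genes thus had differences below 0, with a median of −0.21, and none passed the test. Further probe sets of Col4a5 and Col4a3 gave 0.02 and −0.01, with overlapping genotypes, while those of Col4a1, Col4a4 and Col4a6 were below 0. Apart from Col4a1 and Col4a2, no type IV gene had both cage 3 pools lowest in the probe set used. The further Col4a3 probe set, also dim, did.

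Type VI collagen is assembled from Col6a1, Col6a2 and 1 more chain, classically Col6a3. Col6a1 read 11.09, 10.49 and 10.23 in the wild-type pools and 10.33, 10.37 and 10.07 in the duoxa-/- pools. The wild-type pool of cage 1 was the highest, both cage 3 pools the lowest, and each duoxa-/- pool was below the wild-type pool of its cage. Its difference of −0.35 (SE 0.20) was the furthest from 0 among the probe sets used for the collagens (limma adjusted p = 0.811). Further probe sets of Col1a1 and Col6a2 lay further from 0, at −0.48 and −0.36. Col6a2 read 11.30, 10.70 and 10.43 in the wild-type pools and 10.78, 10.75 and 10.33 in the duoxa-/- pools, a difference of −0.19 (SE 0.22), with overlapping genotypes. Col6a3 read 10.91, 10.22 and 9.99 in the wild-type pools and 10.61, 10.62 and 10.03 in the duoxa-/- pools, a difference of 0.05 (SE 0.25), and its genotypes overlapped too. The 3 chains shared the low cage 3, which lay below cage 1 by 0.56, 0.66 and 0.75 in turn. Col6a4, a later described alternative to Col6a3, was flat. It read 9.18, 9.19 and 9.13 in the wild-type pools and 9.24, 9.17 and 9.21 in the duoxa-/- pools, and no cage or genotype stood apart. Col6a5 was below the median of all probe sets, with a difference of −0.12 (SE 0.12).

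Fibril-associated collagens coat the surface of fibrils and interrupt the helix with flexible segments. Of 9 such genes, 5 were above the median of all probe sets. Col12a1, which links fibrils under tension, read 9.13, 8.74 and 8.45 in the wild-type pools and 8.89, 8.68 and 8.62 in the duoxa-/- pools. It was lowest in cage 3, with cage 1 above cage 3 by 0.47 and a genotype difference of −0.04 (SE 0.16). Col14a1, its close relative, read 9.03, 9.07 and 8.79 in the wild-type pools and 9.11, 8.75 and 8.89 in the duoxa-/- pools. The cage 3 pools of Col14a1 were not both lowest, since the duoxa-/- pool of cage 2 lay under them, and the genotype difference was −0.05 (SE 0.12). Col9a3, Col16a1 and Col20a1 had differences of 0.07 (SE 0.12), 0.10 (SE 0.086) and −0.06 (SE 0.077), with overlapping genotypes in each. Col9a1, a chain of the type IX collagen of cartilage, read 6.32, 6.07 and 6.17 in the wild-type pools and 5.98, 5.96 and 5.92 in the duoxa-/- pools. Its duoxa-/- pools were all below its wild-type pools, the difference was −0.23 (SE 0.086), and limma gave an unadjusted p of 0.025 and an adjusted p of 0.811. Col19a1 also had every duoxa-/- pool below every wild-type pool, with a difference of −0.13 (SE 0.076). Both genes were dim, and Col9a2 and Col22a1, likewise dim, had differences of −0.04 (SE 0.082) and 0.00 (SE 0.092).

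The multiplexins, types XV and XVIII, sit at the edge of basement membranes, and the tail of type XVIII is released as endostatin. Col15a1 read 7.92, 7.20 and 6.96 in the wild-type pools and 7.33, 7.22 and 6.97 in the duoxa-/- pools. The wild-type pool of cage 1 stood above the other 5, the cage 3 pools were the lowest, and the difference was −0.18 (SE 0.23). Col18a1 read 8.62, 8.61 and 8.22 in the wild-type pools and 8.60, 8.79 and 8.25 in the duoxa-/- pools. Here cage 3 was lowest, but cage 2 exceeded it by 0.46 and cage 1 by 0.37, and the genotype difference was 0.06 (SE 0.16).

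Transmembrane collagens are held in the plasma membrane of the cell that makes them. In the probe sets used, Col23a1 was the only collagen with both cage 3 pools above the 4 others (2.38%, against 8.4% of all genes). It read 7.22, 7.06 and 7.26 in the wild-type pools and 7.18, 6.80 and 7.54 in the duoxa-/- pools, a difference of −0.01 (SE 0.17) between genotypes. Cage 2 minus cage 3 was −0.47 in this probe set. A further Col23a1 probe set, also above the median, did not share the pattern. It read 7.14, 6.88 and 6.79 in the wild-type pools and 6.90, 6.82 and 7.25 in the duoxa-/- pools. There the wild-type pool of cage 3 was the lowest. A dimmer Col23a1 probe set did not have both cage 3 pools above the others either. Col13a1, found at cell adhesion sites, and Col25a1, first known from neurons, had differences of 0.12 (SE 0.11) and −0.08 (SE 0.076). Col17a1, the collagen of skin hemidesmosomes, was below the median of all probe sets.

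Of the short-chain network collagens, which form lattices around vessels and in cartilage, Col8a1 read 6.95, 6.73 and 6.84 in the wild-type pools and 6.94, 6.87 and 6.91 in the duoxa-/- pools, a difference of 0.07 (SE 0.083) with overlapping genotypes. A further Col8a1 probe set, below the median of all probe sets, had a difference of −0.24, with every duoxa-/- pool below every wild-type pool. Another, dimmer still, had a difference of 0.10. Col8a2, the partner of Col8a1, was below the median of all probe sets. It read 6.54, 5.97 and 5.90 in the wild-type pools and 5.80, 5.80 and 5.90 in the duoxa-/- pools. Every duoxa-/- pool of Col8a2 was below every wild-type pool, though the highest of the former and the lowest of the latter were 5.90 each to 2 decimals, and the difference was −0.30 (SE 0.16). Col10a1 of growth cartilage, Col7a1 of the anchoring fibrils of skin and Col26a1 were dim as well, with differences of 0.02 (SE 0.10), −0.06 (SE 0.082) and −0.08 (SE 0.088).

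Genes with more than 1 probe set allowed the same gene to be read with other probes on the same arrays. The 14 genes low in cage 3 had 14 further probe sets in 10 genes, and 11 of these 14 were lower in cage 3 than in the mean of cages 1 and 2. In 8 of them, each of a different gene, both cage 3 pools were again the lowest. Of the 9 further probe sets above the median of all probe sets, 8 did so, and the exception was a second Col12a1 probe set, in which cages 1 and 2 minus cage 3 came to −0.20. For the genotype difference, 24 of the 40 further probe sets of all collagens had the sign of the probe set used. Probe sets of a gene share their RNA and array and are not replicates.

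**Figure D4:**
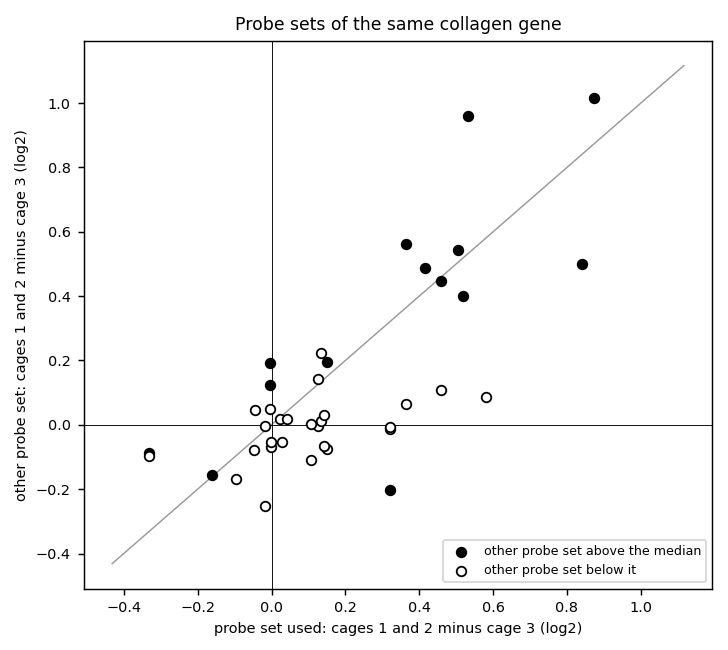
Mean of cages 1 and 2 minus cage 3 (log2) in the probe set used for a collagen gene (x axis) and in each of its 40 further probe sets (y axis); the grey line marks equal values. Filled points are further probe sets above the median of all probe sets, and 8 of them lie at the upper right with both cage 3 pools lowest.

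The genes that modify, cross-link and secrete collagen were read from a list with 29 of 33 entries measured. None was called between genotypes or cages at an adjusted p under 0.05 by limma. The median genotype difference was −0.09, and 21 of 29 were below 0 (against 53.9% of all genes). The smallest genotype p among those above the median belonged to Plod1, a lysyl hydroxylase that prepares collagen for cross-linking. It read 7.84, 7.36 and 7.31 in the wild-type pools and 6.96, 7.09 and 7.13 in the duoxa-/- pools, with every duoxa-/- pool below every wild-type pool and a difference of −0.44 (SE 0.14) (limma adjusted p = 0.811). Loxl1, a lysyl oxidase relative, followed with −0.29 (SE 0.18). Between cages, 4 of the 29 had an unadjusted p under 0.05 (against 6.21% of all genes), and 5 had both cage 3 pools lowest (against 9.16%). Lox, the enzyme that starts collagen cross-links, was named after its values were seen. It read 6.96, 7.15 and 6.26 in the wild-type pools and 6.88, 6.72 and 5.99 in the duoxa-/- pools, lowest in cage 3 in both genotypes (limma F-test adjusted p = 0.234). Loxl1 was low in cage 3 too, whereas Plod2 and Mia2 were higher there, with cage 1 minus cage 3 at −0.28 and −0.39.

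The collagenases, gelatinases and their inhibitors, 14 of 14 measured, had a median genotype difference of −0.00, with 7 below 0 and 0 called. Mmp13, an interstitial collagenase, read 7.05, 7.45 and 6.94 in the wild-type pools and 7.75, 7.68 and 7.29 in the duoxa-/- pools. It was higher in the duoxa-/- pool of each cage, with a difference of 0.42 (SE 0.16), but its groups overlapped and it was not called by limma (adjusted p = 0.811). Mmp2, a gelatinase made by stromal cells, had a difference of −0.21 (SE 0.12). Among collagen receptors, 9 of 10 measured, the median was 0.06 and 0 were called. The integrin chain Itga2 and the receptor kinase Ddr1, both collagen-binding, had differences of 0.20 (SE 0.12) and −0.10 (SE 0.089).

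The proteoglycans, elastic fibre and other proteins of the interstitial matrix, 22 of 23 measured, had a median genotype difference of −0.04, with 15 below 0 and 0 called. Prelp, a small leucine-rich proteoglycan that binds collagen, read 9.01, 8.87 and 8.84 in the wild-type pools and 8.55, 8.53 and 8.64 in the duoxa-/- pools. All its duoxa-/- pools lay below its wild-type pools, with a difference of −0.33 (SE 0.082) (limma adjusted p = 0.811). Over the 17 alternatives described below, the Prelp difference ran from −0.40 to −0.045. In those that left out pools it ran from −0.40 to −0.27. Aspn, of the same family, had a difference of −0.21 (SE 0.095). Between cages, 6 of the 22 had both cage 3 pools lowest (against 9.16% of all genes), among them the elastic fibre genes Fbln5 and Eln. Fbln5 read 9.42, 9.27 and 8.71 in the wild-type pools and 9.47, 9.12 and 8.79 in the duoxa-/- pools and had the smallest cage p of the list (limma F-test adjusted p = 0.334); both were named after their values were seen.

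Laminins, nidogens and other partners of type IV collagen, 17 of 18 measured, had a median genotype difference of 0.01 and 0 calls. Lamb1 and Lamc1, chains of the laminins most widely found, had differences of 0.18 (SE 0.13) and −0.29 (SE 0.22). Between cages, Nid1, Lamb1 and Lamc1 were lower in cage 3 than in cage 1, by 0.49, 0.38 and 0.62, with an unadjusted p under 0.05. Lamb3, an epithelial laminin chain, was instead higher in cage 3, with cage 1 minus cage 3 at −0.54, and these 4 were named after their values were seen. Ligands, receptors and targets of TGF-beta, the growth factor best known for inducing collagen, had 15 of 16 measured. Their median genotype difference was −0.01, 0 were called, and 0 had an unadjusted cage p under 0.05 (against 6.21% of all genes). Skil, a transcriptional repressor that TGF-beta induces, read 11.60, 11.46 and 11.41 in the wild-type pools and 11.92, 11.81 and 11.68 in the duoxa-/- pools, with a difference of 0.31 (SE 0.093). Tgfbr2, the ligand-binding receptor, had a difference of 0.19 (SE 0.075). In both genes all duoxa-/- pools lay above all wild-type pools (against 5.08% of all genes), and neither was called by limma (adjusted p = 0.811 for each).

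Markers of the cell types in the samples were set beside the collagen pattern of the pools. Their counts compare with 9.16% of all genes for both cage 3 pools lowest and 6.21% for an unadjusted cage p under 0.05. The 12 fibroblast markers had mean levels of 9.46 to 9.68 in wild-type and 9.47 to 9.52 in duoxa-/- pools. Both cage 3 pools were lowest for 3 of 12, and 1 of 12, Pdgfrb, had an unadjusted cage p under 0.05. The list shares Dcn, Lum, Fbln1 and Mmp2 with the matrix lists above. The 14 smooth muscle markers had mean levels of 11.48 to 12.03 in wild-type and 11.33 to 11.69 in duoxa-/- pools, and both cage 3 pools were lowest for 0 of 14. Their highest pool was the wild-type pool of cage 1, as for the collagens, but their lowest was the duoxa-/- pool of cage 1. The 12 endothelial markers, at 7.19 to 7.43 and 7.30 to 7.37, had both cage 3 pools lowest in 2. The 9 epithelial markers kept to 13.25 to 13.32 and 13.26 to 13.30. Among 11 of 12 leukocyte markers measured, at 9.01 to 9.31 and 8.93 to 9.25, 5 of 11 had both cage 3 pools lowest, a higher share than the 33.3% of the collagens, and 2 had an unadjusted cage p under 0.05. Enteric neuron and glia markers, 8 of 10 measured, and mesothelium and adipocyte markers, 6 of 8 measured, had 0 with both cage 3 pools lowest. The part of any of these cell types in the cage pattern of the collagens was not tested.

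**Figure D5:**
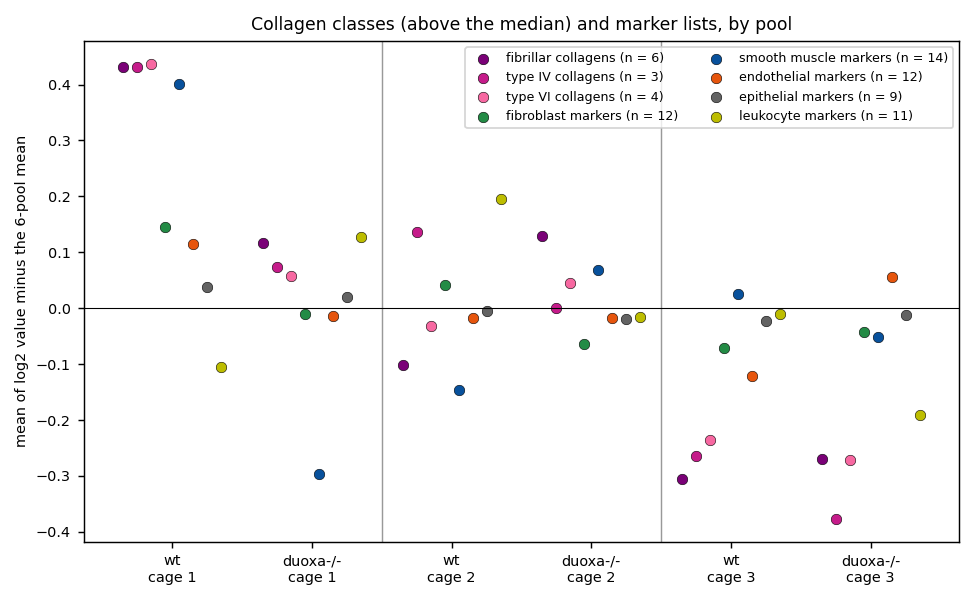
Mean of log2 value minus the 6-pool mean (y axis) over the genes of each collagen class above the median and of each marker list, for the 6 pools (x axis). The fibrillar, type IV and type VI classes lie at 0.43 to 0.44 in the wild-type pool of cage 1 and at −0.24 to −0.38 in the cage 3 pools, while the smooth muscle markers lie at 0.40 in the former and at 0.03 and −0.05 in the latter.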

How the data were processed

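Biotin-labelled RNA copies were made from TRIzol-extracted, column-cleaned RNA of the ileal mucosa, per the labels' protocols. The deposited values are log2 probe set summaries that the authors made with RMA in affy, per the submitters' processing notes. The versions of both tools are not given in the sources used. RMA evens out the distributions of arrays, which can compress differences of dim probe sets. The number of arrays limits the precision, and p values measure the spread between pools.

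Of 45101 rows, 64 controls were left out; of the 45037 others the platform annotation gave 34945 a single symbol and 932 more than 1, and 9160 had none here. Symbols were checked by gene identifier against RefSeq's GRCm38.p6 table (34741 matched, 0 changed). Genes took the probe set with the highest mean over 6 arrays. Genotypes were compared with limma 3.58.1 in R 4.3.3 (lmFit, eBayes, two-sided, Benjamini-Hochberg over 18193 genes, adjusted p under 0.05) on all 6 pools with no cage term, and cages by a moderated F-test of limma that keeps genotype as a term. Each adjusted p in the text comes from limma. Differences are duoxa-/- minus wild type, and intervals are at 95%. Python 3.11.15, pandas 2.3.3 and matplotlib 3.10.9 did the rest. The fits were run on simulated data with independent errors in the 6 pools. Errors shared by the pools of a cage were not simulated.

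The design text makes the cage number a shared litter, which pairs the pools. Deviations from the group means of pools of the same cage correlated at −0.18, 0.16 and 0.34. Those of a wild-type and a duoxa-/- pool of different cages correlated at −0.44 to 0.40. The members and lists were chosen with earlier results of these data known. Named in the text were the collagens with the smallest p or above the median. Up to 3 genes of each list above the median were named by genotype p. Some others are said to be named after their values were seen. Plod2, Mia2 and Pdgfrb were picked that way too, and the pool values of Col8a2 were added in the same way. Alternatives were the cage as a block, each pool or cage left out, mean of probe sets, no cross-hybridising probe sets, a filter on dim genes, renormalization, centring, array weights and a variance trend.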

Additional observations from a re-analysis of the deposited data

How the results depend on the processing

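Genotype calls among collagens stayed at 0 under all 17 alternatives, and the median difference ran from −0.11 to 0.01 (the latter without the wild-type pool of cage 1). With the cage as a replicate block, which fits the pairing by litter, 0 collagens were called either; at an unadjusted p under 0.05 it picked 4 (Col5a3, Col4a4, Col6a1 and Col9a1; 6.41% of all genes), against 1 without the block. Leaving out pools moved the collagens called between cages from 0 to 1 (Col4a1, with the duoxa-/- pool of cage 1 left out, at a limma adjusted p of 0.0454) and those with an unadjusted cage p under 0.05 from 4 (no cage 3) to 17. Those with cage 3 lowest numbered 13 to 21, and the shares of all genes for these cage counts are not given. Leaving out a pool could not lower the number with cage 3 lowest. Over the 40 named genes, 614 of 676 genotype differences kept their direction and side of the threshold, 62 reversed and 0 passed.

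The cause of the reversals was not tested. With the mean of all probe sets: Col1a2 0.086, Col5a1 −0.018, Col6a4 −0.071, Col8a1 −0.027, Col9a3 −0.0040, and Col12a1 in cage 2 minus cage 3 −0.043. Without cross-hybridising probe sets: Col18a1 −0.020 and Aspn 0.095. For Col23a1, quantile normalization gave 0.019 and centring 0.0068. With array weights: Col4a1 0.011, Col1a1 0.15, Col1a2 0.070, Col3a1 0.075, Col12a1 0.070 and Col14a1 0.022. Leaving out pools gave Col1a1 −0.41 to 0.36, Col1a2 −0.19 to 0.15, Col3a1 −0.26 to 0.17, Col5a1 −0.10 to 0.23, Col5a2 −0.19 to 0.23, Col27a1 −0.058 to 0.17, Col4a1 −0.50 to 0.073, Col6a2 −0.38 to 0.053, Col6a3 −0.14 to 0.32, Col9a3 −0.00077 to 0.20, Col12a1 −0.20 to 0.13, Col14a1 −0.14 to 0.093, Col20a1 −0.12 to 0.0020, Col13a1 −0.041 to 0.25, Col23a1 −0.19 to 0.18, Col15a1 −0.38 to 0.10, Col18a1 −0.070 to 0.21 and Ddr1 −0.15 to 0.00032. Cage 1 minus cage 3 of Col23a1 ran from −0.41 to 0.024. Of the 30 cage differences of the 15 genes with an unadjusted cage p under 0.05, no other reversed. These genes were selected on the same cage differences, so their stability adds no separate support. With a whole cage left out, the sign could not change in the 14 genes with both cage 3 pools lowest.

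In the fit with no cage term, the 3 pools per genotype bound the collagen differences only to within 1 log2 unit in the probe sets used. With the cage as a block the SE was smaller in some genes, such as Col1a1 (0.21 against 0.39) and Col4a1 (0.12 against 0.30). It was larger in others, such as Col6a4 (0.082 against 0.071). Pooled RNA hides the spread between animals, and compression of dim probe sets was not tested. Cage and litter cannot be told apart.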
